A study of Mus musculus with 3 samples.

Results

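The regions described here are stretches of open chromatin that the peak caller found in 1 mouse kidney library, old replicate 2, and in neither of the other libraries of the study. The peak lists of the 3 libraries were merged wherever peaks overlapped by at least 1 bp, which gave 250005 merged regions. Of these, 18179 (7.27%) held a peak of old replicate 2 and no peak of old replicate 1 or of the young library. Each was a single peak, so they were also 12.7% of the 143258 peaks of old replicate 2. The regions were thus chosen by peak calls, which rest on the measured fragments, so their presence in old replicate 2 and absence from the other peak lists is not a finding. They are called old replicate 2-alone regions below.

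Single kidney cells were profiled by mtscATAC-seq, in which fixed and permeabilised cells keep their mitochondria and a transposase cuts accessible DNA. All 3 libraries came from kidneys of mice with a point mutation of the mitochondrial glutamate tRNA gene (trnE). Old replicate 1 was taken at 75 weeks of age with a 75% mutation load, old replicate 2 at 75 weeks with an 80% load, and the young library at 3 weeks with an 80% load. No mutation-free kidney was used here, the labels give no sex, and they do not say whether each library came from 1 animal. The purpose stated in the series title is the build-up of mitochondrial tRNA mutations with age, which peak lists do not measure.

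Accessible chromatin marks promoters and enhancers that transcription factors hold open. In the kidney, proximal tubule cells reabsorb most of the filtered glucose, amino acids and salt, the loop of Henle, distal tubule and collecting duct adjust salt, acid and water, and each cell type opens its own enhancers beside promoters shared by all cells.

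Old replicate 2 held 4302 barcodes with a median of 13338.5 counts in peaks, old replicate 1 held 5656 with 16288.5 and the young library 4440 with 23319.5. Old replicate 2 was therefore the shallowest library, and it had the fewest peaks (143258, against 169187 and 149490). After filtering, 3950 cells of old replicate 2 were kept, of which 3508 (88.8%) were proximal tubule-like, 325 (8.23%) loop to collecting duct-like and 101 (2.56%) endothelium-like. Old replicate 1 stood apart: 3293 of its 5315 cells were macrophage or dendritic cell-like, and it held 251 proximal tubule-like and 54 loop to collecting duct-like cells. The young library held 3330 and 200 of these. Old replicate 2 shared 39 barcodes with old replicate 1 and 32 with the young library. Each deposited matrix counts fragments only in its own library's peaks, so the signal of the other libraries inside these regions was not measured, and a region without a peak elsewhere is not shown to be closed there. Since every region comes from 1 library, there is no replicate and no test, and the exact 95% intervals below cover counting error only. The cell numbers of the libraries differed along with the peak lists, and the part of this in the lists was not tested.

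The regions that hold a gene start give the clearest sequences, and 7 of their promoters are shown as examples. They were chosen after their values were seen. They do not represent the list, in which gene starts were rare and most regions were called for no class or cluster. Atp4a, Rhcg, Atp6v1b1 and Car15 are acid-base genes whose starts were open in a larger share of loop to collecting duct-like than of proximal tubule-like cells. Nat8f6, Nat8f5 and Slc22a26 have starts open almost wholly in proximal tubule-like cells. Each sequence is the 250 bases before the RefSeq gene start, read 5′ to 3′ on the gene's strand from RefSeq (GRCm38.p6), and lies whole inside its region. Capitals mark matches to the motif letters given further below.
Atp4a, chr7:30711959-30712208, plus strand: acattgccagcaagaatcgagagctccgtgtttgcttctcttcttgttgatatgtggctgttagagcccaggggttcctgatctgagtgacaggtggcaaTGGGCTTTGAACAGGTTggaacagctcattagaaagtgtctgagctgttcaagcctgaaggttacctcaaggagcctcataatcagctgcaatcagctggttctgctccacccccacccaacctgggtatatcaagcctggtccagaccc
Rhcg, chr7:79617658-79617907, minus strand: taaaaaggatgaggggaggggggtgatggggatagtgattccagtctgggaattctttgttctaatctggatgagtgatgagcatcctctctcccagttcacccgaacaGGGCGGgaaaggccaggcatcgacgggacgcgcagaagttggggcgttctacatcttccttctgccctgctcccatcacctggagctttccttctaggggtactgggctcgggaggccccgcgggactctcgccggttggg
Atp6v1b1, chr6:83742767-83743016, plus strand: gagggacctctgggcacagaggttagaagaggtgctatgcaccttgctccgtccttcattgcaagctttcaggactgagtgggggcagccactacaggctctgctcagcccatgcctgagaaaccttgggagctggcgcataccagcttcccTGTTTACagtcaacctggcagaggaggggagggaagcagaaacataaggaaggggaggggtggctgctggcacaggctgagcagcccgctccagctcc
Car15, chr16:17838187-17838436, minus strand: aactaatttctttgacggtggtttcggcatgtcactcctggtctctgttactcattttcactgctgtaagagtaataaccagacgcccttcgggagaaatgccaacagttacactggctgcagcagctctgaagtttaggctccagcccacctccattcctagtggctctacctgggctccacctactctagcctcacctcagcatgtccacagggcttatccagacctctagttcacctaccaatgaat
Nat8f6, chr6:85809878-85810127, minus strand: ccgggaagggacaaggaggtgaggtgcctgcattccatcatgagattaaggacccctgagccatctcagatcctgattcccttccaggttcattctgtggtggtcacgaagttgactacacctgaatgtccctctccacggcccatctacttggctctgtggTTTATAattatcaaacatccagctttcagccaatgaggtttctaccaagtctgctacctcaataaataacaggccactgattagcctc
Nat8f5, chr6:85820973-85821222, minus strand: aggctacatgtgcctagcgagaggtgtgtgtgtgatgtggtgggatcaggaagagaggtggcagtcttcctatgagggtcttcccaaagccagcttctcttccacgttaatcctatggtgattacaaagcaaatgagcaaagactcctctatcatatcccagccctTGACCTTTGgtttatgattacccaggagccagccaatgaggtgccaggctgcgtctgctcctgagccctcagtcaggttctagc
Slc22a26, chr19:7802668-7802917, minus strand: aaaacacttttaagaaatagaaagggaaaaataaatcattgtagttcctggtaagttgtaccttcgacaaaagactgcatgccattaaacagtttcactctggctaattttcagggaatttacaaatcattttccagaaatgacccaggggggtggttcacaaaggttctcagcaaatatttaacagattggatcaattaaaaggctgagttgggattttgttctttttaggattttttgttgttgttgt
The capitals in Atp4a, which encodes the catalytic subunit of a proton-potassium pump, are an HNF4 motif match directly followed by a match to the GRHL and TFCP2L1 letters. Rhcg, an ammonia transporter of the collecting duct, has an SP match, and Atp6v1b1, a proton pump subunit of intercalated cells, a FOX match. Nat8f6 has a TATA match and Nat8f5 an HNF4 match. Car15 and Slc22a26 held none of the motifs searched. The promoters of Nat8f5 and Nat8f6, neighbouring members of an N-acetyltransferase family, were 57.2% identical in a global alignment, the highest value among the 7 promoters.

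Most old replicate 2-alone regions were open in few cells. The median region had at least 1 fragment in 39 of the 4302 barcodes, or 0.907%, with quartiles of 0.697% and 1.26% and a range from 0.093% to 12.4%. The median over all peaks of old replicate 2 was 2.44%, over its peaks in regions called in all 3 libraries 4.63%, over those shared with the young library alone 1.79% and over those shared with old replicate 1 alone 1.05%. The old replicate 2-alone regions therefore lay lowest of the 4 sets. Of them 7440 (40.9%) were open in at least 1% of barcodes and 101 (0.556%) in at least 5%, against 82.4% and 26.5% of all peaks. Together they held 916115 fragments, which was 2.72% (2.716 to 2.727) of the fragments in peaks. Openness enters the peak calls that chose the regions, so these values are a description.

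**Figure D1:**
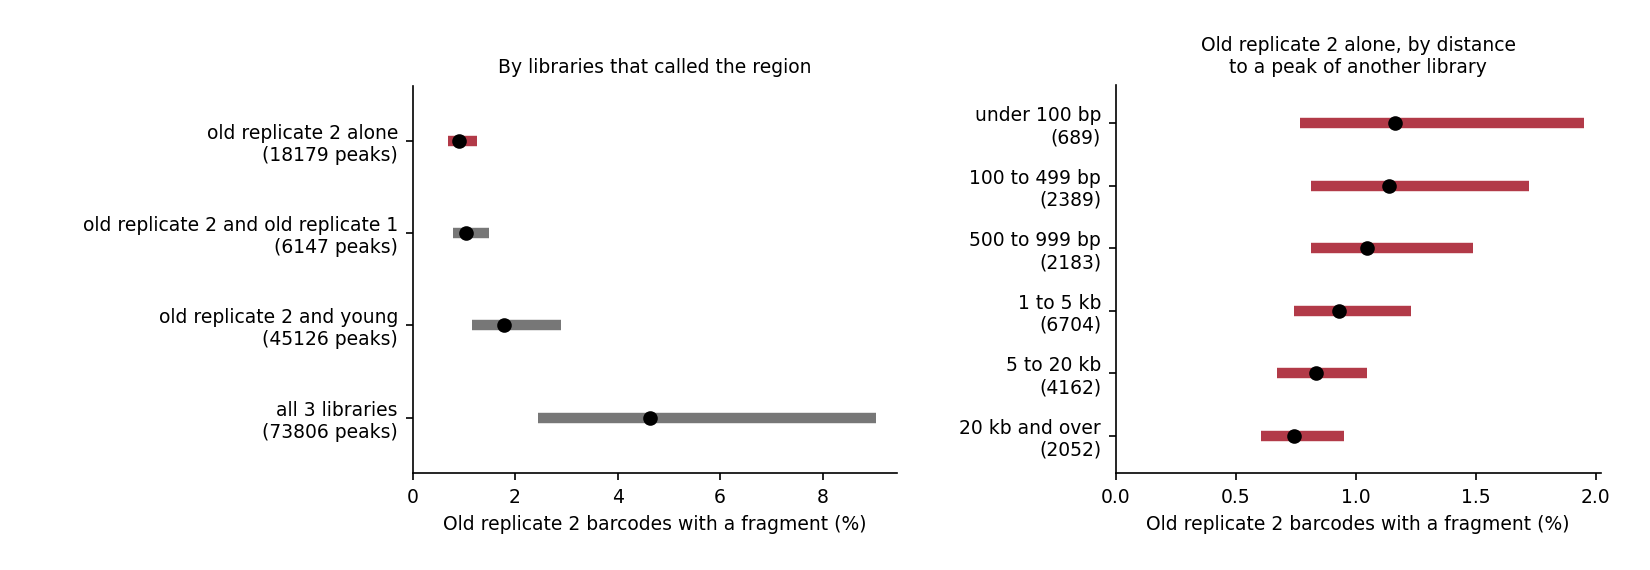
Share of old replicate 2 barcodes with at least 1 fragment per peak (x axes, %), by the libraries that called the region (left) and, for old replicate 2-alone regions, by distance to the nearest peak of another library (right). Points are medians and bars run from the lower to the upper quartile over peaks. The medians fall from 4.63% in regions of all 3 libraries to 0.907% in old replicate 2-alone regions, and among these from 1.16% under 100 bp from another library's peak to 0.744% at 20 kb and over.

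Many of the most open regions lay beside a peak of another library. The median distance from an old replicate 2-alone region to the nearest such peak was 2633 bp (quartiles 792 and 7619), and 3078 regions (16.9%) lay within 500 bp. Among the 100 most open regions, 69 lay that close. The median share of open barcodes was 1.16% in the 689 regions under 100 bp away and 0.744% in the 2052 regions at 20 kb and over. At the edge of the rule, 58 regions lay 0 to 10 bp from a peak of another library, of which 5 touched it, with a median of 1.08% open. The 62 peaks of old replicate 2 that were left out because they overlapped another library's peak by 10 bp at most had a median of 0.918%. Values for the 15101 regions at least 500 bp away are given where they differ.

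The 12 most open regions show both kinds. The first, at chr13:55415950-55416936 (mm10) between Pfn3, a profilin gene, and F12, the gene of coagulation factor XII, was open in 535 barcodes (12.4%, 11.5 to 13.5) and lay 65 bp from a peak of old replicate 1. It was open in 502 of the 3508 proximal tubule-like cells and in none of the 325 loop to collecting duct-like or 101 endothelium-like cells. Counts of 0 allow shares of up to 0.923% and 2.97% in those classes when 3 cells are taken as the limit, and the exact upper bounds were 1.13% and 3.59%. The second, inside Pck1 at chr2:173155972-173156743, lay 2454 bp from the nearest peak of another library and 2899 bp from a gene start. Pck1 encodes the enzyme that commits the proximal tubule to glucose production. The region was open in 491 barcodes (11.4%), among them 445 proximal tubule-like cells (12.7%, 11.6 to 13.8), 1 loop to collecting duct-like cell and no endothelium-like cell. A region inside Slc3a1, which encodes the heavy subunit of the cystine transporter, at chr17:85030218-85031195, was open in 404 barcodes (9.39%), in 371 proximal tubule-like and 4 loop to collecting duct-like cells, and lay 1325 bp from other peaks. These regions were open in the tubule class that held 88.8% of the cells and nearly closed elsewhere.

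Other regions of the 12 had open cells in every class. A region 603 bp from the start of Sin3a, the scaffold of a histone deacetylase complex, was open in 358 proximal tubule-like (10.2%), 29 loop to collecting duct-like (8.92%) and 14 endothelium-like cells (13.9%), and lay 392 bp from another library's peak. The region at chr4:155233914-155234808, whose nearest known gene was Ski, a repressor of TGF-β signalling, was open in 412, 20 and 11 cells of these classes and lay 38 bp away. The remaining 7 lay 3 to 344 bp from a peak of another library. They were at or near Nfil3 (387 barcodes), Galt (385), Fam214a (383), Rpl38 (378), Brwd1 (369) and Zbtb45 (364), with 1 at chr13:45301276-45301997 (453) that had no known gene within 87745 bp. This chr13 region was open mainly in proximal tubule-like cells (11.9%), against 1.54% of loop to collecting duct-like and 0.990% of endothelium-like cells. The Galt region held a gene start, and those at Nfil3, Fam214a, Rpl38, Brwd1 and Zbtb45 lay within 1 kb of one. The 12 regions were chosen for openness, so they cannot show how proximity to another library's peak and openness relate. The part of peak boundaries in the list was not tested.

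Of the regions at least 500 bp from other peaks, those open in many barcodes after Pck1 and Slc3a1 included regions in Klf15, a transcription factor of amino acid and glucose metabolism (308 barcodes), in Pter (296), in the long non-coding RNA gene Lncpint (296) and near Rtl6 (286). These were chosen after their values were seen. Klf15 was open in 273 proximal tubule-like cells, 6 loop to collecting duct-like cells and no endothelium-like cell. Pter was open in 275, 2 and 1. A region in Pantr1, beside the nephron transcription factor gene Pou3f3, had another pattern, with 39 of 325 loop to collecting duct-like cells (12.0%) and 227 of 3508 proximal tubule-like cells (6.47%). Of the regions named here, the one at chr6:26015552-26016454, was open in 273 barcodes and lay 36562 bp from the nearest peak of another library.

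Fragments in old replicate 2-alone regions were spread over many barcodes, with median ratios close to those of shared peaks in the same range of fragments. The median region had 1.04 fragments per open barcode, and no barcode held more than 7 fragments in any of them. For each region the open barcodes were set against an expected number. Here the region's fragments fall on barcodes in proportion to each barcode's fragments in regions called in all 3 libraries. For peaks in those regions the weights thus come from the same set of peaks. Over the 17742 regions with at least 20 fragments the median ratio of observed to expected was 0.966, against 0.968 over all peaks and 0.970 over peaks in regions of all 3 libraries. A value of 1 means no concentration beyond a barcode's depth in regions of all 3 libraries. Against peaks of all 3 libraries in the same range of fragments, the median ratio was 0.969 in both sets at 20 to 29 fragments and 0.962 against 0.970 at 60 to 99 fragments.

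A few regions were far more concentrated. The lowest ratio among those with at least 50 fragments, 0.684, was that of the start of Slc12a3, the thiazide-sensitive sodium chloride cotransporter of the distal convoluted tubule, at chr8:94328552-94329510. Its 74 fragments fell on 50 barcodes, of which the fullest held 5, and 34 of these barcodes were loop to collecting duct-like cells. The next was a region 9599 bp from Srek1, a splicing regulator gene, at chr13:103728059-103728966, with 172 fragments on 124 barcodes and a ratio of 0.743. The others were a region in Zfhx3 (0.762), one at chr3:52605004-52605885 with no known gene within 254895 bp (0.786), one at chr4:25118640-25119580, 80327 bp from Fhl5 (0.792), and one at chr17:83964404-83965396 (0.796). All 6 were open mainly in 1 group of cells. The Slc12a3, chr3 and chr17 regions were called for the loop to collecting duct-like class, and the Srek1, Zfhx3 and Fhl5 regions for 1 proximal tubule-like cluster, by the rule given below.

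Across barcodes, the regions' fragments were somewhat more unequal than those of shared regions. The 44 barcodes (the top 1%) with the most held 4.22% of the fragments in old replicate 2-alone regions, against 3.39% for the top 44 in regions of all 3 libraries. The top 10% held 27.7% against 24.2%, and the Gini coefficients were 0.433 and 0.395. Of the 4302 barcodes, 4300 had at least 1 fragment in the list. With a median of 173 such fragments per barcode, this count cannot show how many barcodes made up the list. The share of a barcode's fragments that fell in these regions had a median of 2.52% and quartiles of 1.98% and 3.32%. It exceeded 10% in 23 barcodes, whose median was 646 fragments. Low depth went with a higher share: with barcodes ordered by depth and cut into 10 equal parts, it was 4.01% (3.93 to 4.09) in the 431 barcodes with the fewest fragments (median 514), 2.99% in the next 430 and 2.63% to 2.79% in the other 8 parts.

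Cell classes differed in how much of their signal fell in these regions. The clusters were made from regions called in all 3 libraries, so no old replicate 2-alone region took part in them. Per 100 fragments in those shared regions, loop to collecting duct-like cells had 4.92 (4.89 to 4.96) fragments in old replicate 2-alone regions, proximal tubule-like cells 3.23 (3.22 to 3.23) and endothelium-like cells 2.08 (2.04 to 2.13). The loop to collecting duct-like rate was 1.53 times the proximal tubule-like rate (1.51 to 1.54), and the endothelium-like rate 0.645 times (0.631 to 0.660). The middle 50% of single cells ran from 4.08 to 6.04 in the first class and from 2.33 to 3.85 in the second, so these ranges did not overlap. Median fragments per cell were 4608, 7503.5 and 4003 in the order loop to collecting duct-like, proximal tubule-like and endothelium-like. With every cell thinned to 2000 fragments, leaving out 85, 338 and 24 shallower cells in the same order, the rates were 4.91, 3.18 and 2.103. Thinning leaves the expected ratio of each kept cell unchanged. It alters only the weight of cells and which are kept, so it cannot show the part of depth. The order of the classes was another one in regions shared with the young library alone, where proximal tubule-like cells had 18.1, loop to collecting duct-like cells 13.8 and endothelium-like cells 5.21 fragments per 100. In regions shared with old replicate 1 alone, endothelium-like cells led with 5.86, before 2.63 and 1.25 for the loop to collecting duct-like and proximal tubule-like classes. The 3 sets of old replicate 2 thus each had a different leading class, and old replicate 2 had the most loop to collecting duct-like cells of the 3 libraries (325, where old replicate 1 had 54 and the young library 200). The part of these cell numbers in the list was not tested.

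**Figure D2:**
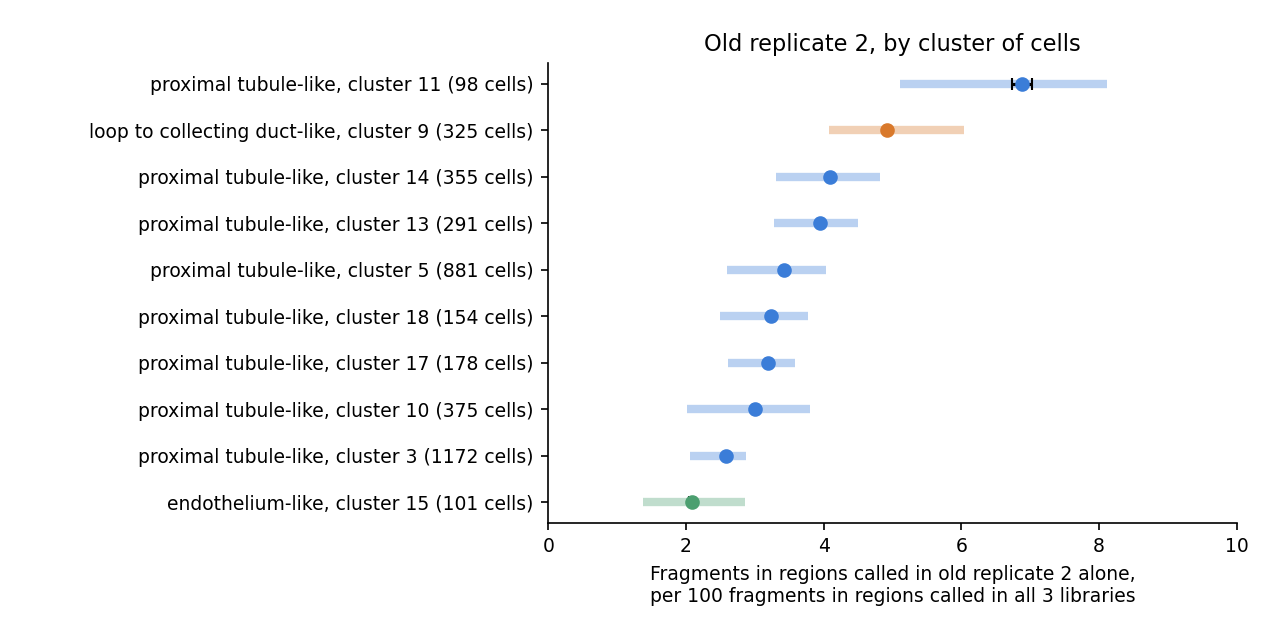
Fragments in old replicate 2-alone regions per 100 fragments in regions called in all 3 libraries (x axis), for each cluster of old replicate 2 cells. Points are cluster sums with exact 95% intervals that are mostly narrower than the point, and pale bars give the middle 50% of single cells. Loop to collecting duct-like cells stand at 4.92 and endothelium-like cells at 2.08, and the proximal tubule-like clusters range from 2.58 to 6.88.

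The proximal tubule-like clusters themselves ranged from 2.58 (cluster 3, 1172 cells) to 6.88 (cluster 11, 98 cells). Cluster 11 had a median of 1342 fragments per cell, the lowest of these clusters, and 395 of its cells came from the young library. Clusters 14 (355 cells) and 13 (291 cells) followed with 4.09 and 3.95 at medians of 6222 and 7958 fragments, and clusters 5, 18, 17 and 10 had 3.42, 3.23, 3.20 and 3.00. Clusters 3, 5 and 14 held nearly no young cells (1, 0 and 1), while other proximal tubule-like clusters held nearly none of old replicate 2, so library and cluster cannot be told apart there.

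A region was called for a class by a rule of size: at least 10 open cells in the class, and a share of the region's open cells at least 2 times the class's share of shared-region fragments. For loop to collecting duct-like cells, whose share was 6.11%, 1836 old replicate 2-alone regions (10.1%) met this, against a background of 8.35% over all peaks of old replicate 2. The share was 9.81% in regions at least 500 bp from other peaks and 6.95% in regions shared with the young library alone. The typical region was not of this kind, since the median share of open cells that were loop to collecting duct-like was 4.76%, against 5.08% over all peaks. For endothelium-like cells 34 regions (0.187%) met the rule against a background of 3.06%. Both counts depend on openness, as a region open in few cells reaches 10 in a small class only when it is concentrated there: 2020 and 36 regions had 10 open cells in these classes. Proximal tubule-like cells held 92.2% of shared-region fragments, so no region could reach 2 times that share. No region lacked an open proximal tubule-like cell, 3761 (20.7%) had no open loop to collecting duct-like cell and 13417 (73.8%) no open endothelium-like cell. The same counts over all peaks were not made, so these describe the list alone. The median share of open cells that were endothelium-like was 0% in the list and 0.114% over all peaks.

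The regions called for the loop to collecting duct-like class included starts of distal nephron genes, chosen for display after their values were seen. The 4 acid-base promoters printed above were picked from 27 regions with a known gene start that were called for this class. Others of the 27 held the starts of Lrrc66, Cib4 and Hdac7. Atp4a (chr7:30711621-30712478) was open in 53 barcodes, 34 of them among the 325 loop to collecting duct-like cells (10.5%, 7.35 to 14.3) and 15 among the 3508 proximal tubule-like cells (0.428%, 0.240 to 0.704). Rhcg (chr7:79617055-79618022) was also open in 53, at 8.31% (5.55 to 11.9) and 0.741% (0.485 to 1.08). Atp6v1b1 (chr6:83742544-83743523) was open in 68, at 10.2% and 0.827%, and Car15 (chr16:17837800-17838629) in 96, at 12.6% and 1.40%. The higher rate in the loop to collecting duct-like class follows from the call that selected them. The Slc12a3 start was open in 10.5% (7.35 to 14.3) of loop to collecting duct-like and 0.371% (0.197 to 0.633) of proximal tubule-like cells. Their distances to the nearest peak of another library were 4555 bp (Atp4a), 1273 bp (Rhcg), 326 bp (Atp6v1b1), 4179 bp (Car15) and 985 bp (Slc12a3).

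Beyond starts, a region in Scnn1a, the alpha subunit of the epithelial sodium channel, was open in 35 loop to collecting duct-like cells (10.8%) and 41 proximal tubule-like cells (1.17%). A region in Atp6v1e1, another proton pump subunit, was open in 51 (15.7%) and 44 (1.25%). Regions in Casz1, a zinc finger factor, in Nup93, the upstream neighbour of Slc12a3, and 4863 bp from Slc29a1, a nucleoside transporter, were each open in 49 loop to collecting duct-like cells (15.1%, 11.4 to 19.4). They were open in 19, 12 and 10 proximal tubule-like cells. The Slc29a1 and Atp6v1e1 regions lay 63 bp and 127 bp from another library's peak, and the Nup93 region 3872 bp. A region in Bicra was open in 55 and 45 cells and one in Nectin2 in 55 and 113. The region with the most loop to collecting duct-like cells, 60, lay 21644 bp from Mrpl19 and was open in 267 proximal tubule-like cells as well. One in Nr1d1, a clock repressor, was open in 58 (17.8%) and 257 (7.33%). By the share of a region's open cells that passed filtering, the leading loop to collecting duct-like regions were one 31526 bp from Ctnnbl1 (31 cells, 93.9%), the chr3:52605004-52605885 region (41 cells, 89.1%) and one in Rxfp2 (20 cells, 87%).

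The endothelium-like regions were few. The 3 with the highest share of open cells in that class lay 9754 bp from Gstm1 (12 cells, 75% of its open cells), 22998 bp from Smim41 (24 cells, 64.9%) and inside Man1c1 (14 cells, 60.9%). The Smim41 region was open in 23.8% (15.9 to 33.3) of endothelium-like cells and in 0.342% of proximal tubule-like cells. For proximal tubule-like cells 2802 regions (15.4%) with at least 10 open cells had all of them in that class, so the highest share was tied. The same count over all peaks was not made. The first 3 by position were far from known genes, 22895 bp from Sox17 (47 barcodes), 66192 bp from Oprk1 (72) and 71546 bp from Sntg1 (41).

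Among the proximal tubule-like clusters with at least 100 cells, cluster 13 had the most calls and was chosen for that. Cluster 13 held 291 cells of old replicate 2, 63 of the young library and 14 of old replicate 1. By the same rule 1714 old replicate 2-alone regions (9.43%) were called for it, against a background of 6.07% over all peaks and 3.91% in regions of all 3 libraries. The count was 483 (2.66%) against 5.17% for cluster 14, 174 (0.957%) against 2.93% for cluster 18, 65 (0.358%) against 0.75% for cluster 17 and 63 (0.347%) against 0.41% for cluster 10. For the large clusters 5 and 3 it was 111 (0.611%) against 0.191% and 5 (0.0275%) against 0.0154%. Clusters 5 and 3 held 31.3% and 28.3% of shared-region fragments, where cluster 13 held 8.02%. The rule was thus harder to meet for the larger clusters, and the counts cannot be compared between clusters without their backgrounds. Cluster 13 shared 184 of its called regions with the loop to collecting duct-like class. In all, 4193 regions (23.1%) were called for some class or cluster, close to the 24.2% of all peaks, and 13986 (76.9%) for none.

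Cluster 13 was proximal tubule-like by 11 raised markers, among them Aqp1, the water channel of this segment, at 147 CPM (133 to 163; fragments at the gene scaled to the cluster's total). It had nearly no signal at 2 transporters of the first part of the tubule: Slc5a2, the low-affinity glucose transporter, and Slc5a12, a lactate transporter, each had 0.802 CPM (0.0971 to 2.90), from 2 fragments. The 6 other proximal tubule-like clusters with at least 100 cells had 10.9 to 60.1 at Slc5a2 and 12.8 to 87.0 at Slc5a12. Slc34a1, the phosphate transporter, had 22.5 CPM (17 to 29.2) against 56.9 to 222. At Kap, the kidney androgen-regulated protein gene, cluster 13 had 10.8 CPM (7.14 to 15.8) against 0 to 0.547. At Slc5a1, the high-affinity glucose transporter, it had 90.6 (79.2 to 103) against 30 to 84.9, and at Slc7a13, an amino acid transporter, 22.9 (17.3 to 29.6) against 7.12 to 20.2, so at both its interval held the highest other cluster. These levels sum old replicate 2 fragments over each gene body and 2 kb around it. No region of the list lay at Slc5a2, Kap or Slc7a13, while Slc5a12 held 2, Slc5a1 3 and Slc34a1 and Aqp1 1 each.

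The regions open in the most cluster 13 cells were chosen for that, so their difference from the other clusters is a description. The Srek1 region was open in 101 of the 291 cluster 13 cells (34.7%, 29.2 to 40.5), in 0 to 2.60% of the 6 other clusters and in 1 loop to collecting duct-like cell. The region 80327 bp from Fhl5 was open in 65 (22.3%, 17.7 to 27.6) against 0 to 4.55%, and lay 60037 bp from any peak of another library. A region in Arhgap26 was open in 68 (23.4%) against 0.282% to 5.19%, and one 2192 bp from Mro in 62 (21.3%) against 0 to 1.3%. A region holding the start of Methig1 within Mettl7a2, a methyltransferase-like gene, was open in 66 (22.7%) against 0.8% to 5.19%. Regions in Amz2 and Cit, the citron kinase gene, were open in 58 (19.9%) and 54 (18.6%), against 0 to 1.69% and 0.563% to 3.37%. A region 36032 bp from Klhl29 was open in 55 (18.9%), one 133414 bp from Sirpb1c also in 55 (against 0.533% to 7.79%) and one 30323 bp from Fbxo4 in 53 (18.2%). A region 92228 bp from Tbx3os1, the nearest known gene, was open in 59 barcodes, 48 of them in the cluster (16.5% of cluster 13 cells) against 0 to 0.845% elsewhere. The starts of Nat8f6 and Nat8f5 went the other way: none of the 291 cells of cluster 13 was open at either.

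**Figure D3:**
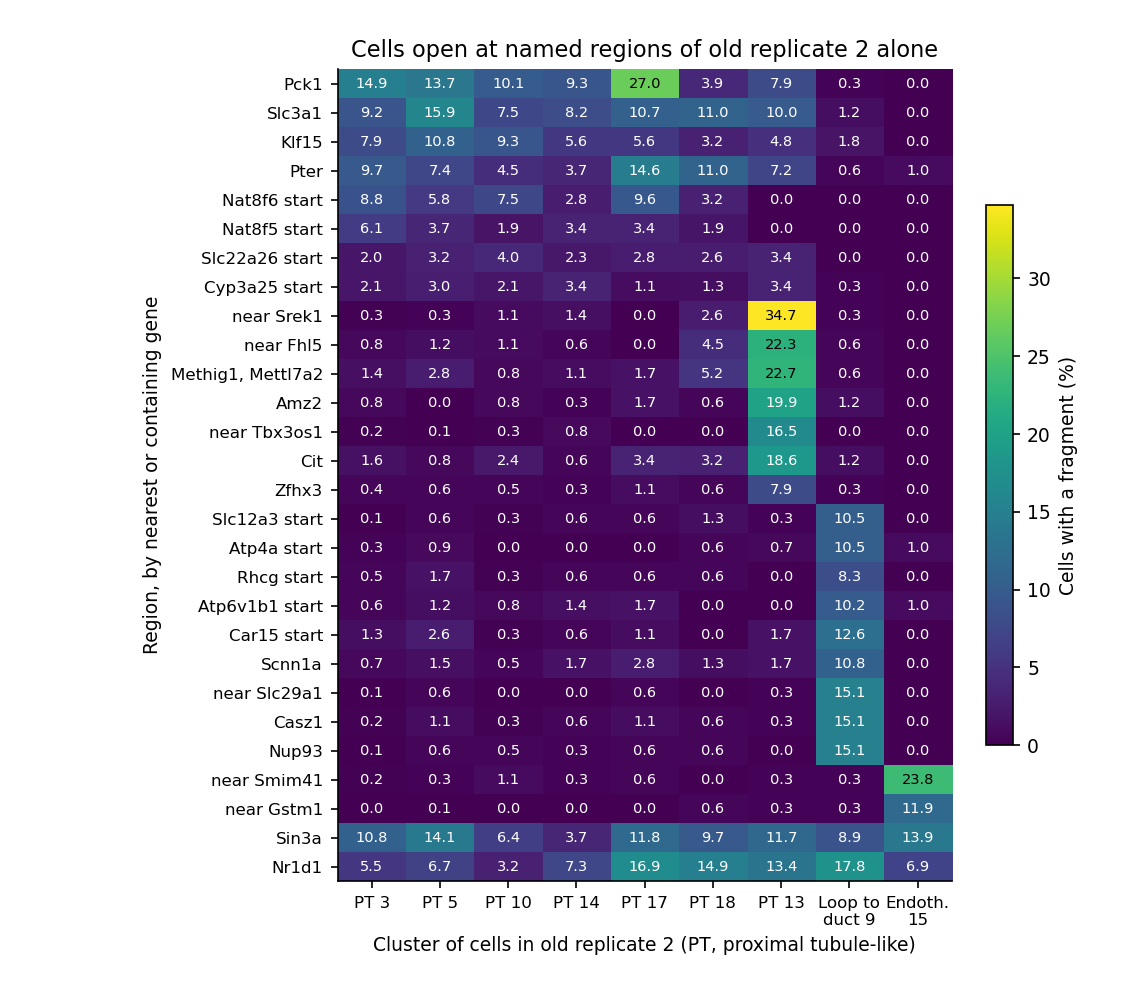
Percent of old replicate 2 cells with at least 1 fragment (colour and printed value) at named old replicate 2-alone regions (rows) in each cluster (columns; PT, proximal tubule-like). The rows fall into blocks open across proximal tubule-like clusters (27.0% at Pck1 in cluster 17), in cluster 13 (34.7% near Srek1), in loop to collecting duct-like cells (15.1% near Slc29a1) and in endothelium-like cells (23.8% near Smim41), with Sin3a and Nr1d1 open in every class; regions were chosen for these patterns.

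Starts of genes with known proximal tubule or liver roles were also in the list. Nat8f6 (chr6:85809494-85810234) was open in 231 barcodes (5.37%, 4.71 to 6.09), with 216 proximal tubule-like cells (6.16%, 5.38 to 7) and no cell of the other named tubule or vessel classes. Nat8f5 (chr6:85820476-85821295) was open in 153, with 133 proximal tubule-like cells (3.79%) and none of the others. Slc22a26 (chr19:7802159-7803129), of the organic anion transporter family, was open in 100, with 94 proximal tubule-like cells (2.68%) and no others, and lay 26185 bp from a peak of another library. Cyp3a25, a cytochrome P450, was open in 85 proximal tubule-like cells and 1 loop to collecting duct-like cell, and Fgg, the fibrinogen gamma chain gene, in 139 and 2. Other starts with over 100 open barcodes included those of Artn, a neurotrophic factor gene (127), and Pitpnm2 (125), both called for the loop to collecting duct-like class, Kcnd2, a potassium channel gene (135), Urah, of urate breakdown (124), Hoxd11, a factor of kidney patterning (121), and Foxa2 (120).

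Gene starts were otherwise rare in the list. Leaving out chromosome 18, 288 of 17514 regions (1.64%) held a RefSeq gene start and 795 (4.54%) lay within 1 kb of one, against 12.9% of all peaks and 19.8% of peaks in regions of all 3 libraries. With only regions at least 500 bp from other peaks the share within 1 kb was 3.19%. Another 55.8% lay inside a gene away from its start and 39.7% outside genes, where all peaks had 55.6% and 31.6%. The median distance to a gene start was 29.6 kb against 18.6 kb for all peaks. Of the 152 regions that held the start of a known gene, 27 (17.8%) were called for loop to collecting duct-like cells, against 603 of 10562 (5.71%) over all peaks, and none for endothelium-like cells, against 980 (9.28%). By chromosome, the list's share of all peaks of old replicate 2 ran from 9.68% on chromosome 19 to 15.3% on chromosome 14, with 15.1% on X and 1 of 25 peaks on Y.

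The promoters in the list had fewer CpG sites than those in all peaks of old replicate 2. The RefSeq table gives 300 bases around each start, and 315 such windows from 293 genes had their start in an old replicate 2-alone region. Their median GC content was 51.3%, against 60.3% for the 15560 windows in all peaks of old replicate 2 and 52.7% for all 32851 windows of the table. They held a median of 5 CpG pairs against 19 in all peaks and 7 in the whole table. The ratio of observed to expected CpG was 0.275 against 0.727 and 0.384, so the list lay nearer the whole table. Short motifs were then searched on both strands, of which none lies inside another. The HNF4 letters CAAAGNNCA were in 31 windows (9.84%) of the list, in 5.71% of windows in all peaks and in 6.36% of the whole table. The letters GGGCGG, bound by SP factors, were in 20.3%, 59.9% and 35.7% of windows in the same order. The ETS letters CCGGAAG were in 1.27%, 15.8% and 8.86%, so for SP and ETS the list lay below both. The TATA letters TATAAA were in 13.3%, 7.22% and 13.6%, so here the list lay near the whole table. The GRHL and TFCP2L1 letters AACCNGTT were in 12 windows (3.81%) against 1.92% and 2.09%, and the AP-1 letters TGANTCA in 7.30% against 5.21% and 7.81%. The FOX letters TGTTTAC were in 3.49%, 2.85% and 3.65%. The ESRR letters TCAAGGTCA and a longer HNF1 motif were in 1 window each (0.317%). The GC content of the windows differed along with these shares, and its part in them was not tested.

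Large genes held the most regions of the list. At least 1 region lay in the body of, or up to 10 kb before, 5962 of 24659 known genes (24.2%), and 65.8% of the regions had such a gene. Pde4d, a cAMP phosphodiesterase, Ptprg, a receptor phosphatase, and Zbtb20, a zinc finger repressor, had 22 each, of 121, 81 and 80 peaks of old replicate 2 there. The immunoglobulin heavy chain locus had 19 of 77, Lrmda 19 of 87, Magi2, a scaffold of cell junctions, 19 of 69 and Fhit 18 of 44. Arhgap26 had 15 of 98, Prkce, a protein kinase C, 15 of 64 and Ablim1, an actin-binding protein, 14 of 59. Per 100 kb the densest genes with at least 5 regions were Ccdc13 (5 of its 14 peaks), Rassf8 (7 of 19), Eva1c (7 of 17), Ptprf (7 of 28) and Yap1, the Hippo pathway co-activator (6 of 12). The most open region of each of these genes was open in between 1.09% (Ccdc13) and 5.74% (Arhgap26) of barcodes. It was 5.35% for Ptprg, 2.14% for Pde4d and 1.67% for Yap1.

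The gene lists covered the tubule's transport, its regulators, and the processes a mitochondrial tRNA mutation or ageing could touch. For each list the share of old replicate 2 peaks at its genes that belonged to old replicate 2 alone is read against 12.7% for all peaks. Lists of tubule function lay near that value. Proximal tubule transport genes had 52 of 400 peaks (13%, 9.86 to 16.7), with 16 of 38 genes represented. The most open were the Slc3a1 region above and one of Slc13a1, the sulfate transporter gene, in 3.95% of barcodes. Distal nephron electrolyte transport had 24 of 198 (12.1%), and 8 of these 24 were called for loop to collecting duct-like cells, where 55 of all 198 (27.8%) were. Nephron transcription factors had 47 of 338 (13.9%), led by the Pou3f3 region above (6.51% of barcodes) and one of Esrrg (4.74%). Circadian clock genes had 32 of 231 (13.9%), with the Nr1d1 and Nfil3 regions above among them, and sex-biased kidney genes and steroid receptors 35 of 260 (13.5%), among them a region 1098 bp before Igf1r open in 6.42% of barcodes.

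Lists of inflammation, interferon response and growth lay lower. Inflammatory and chemokine genes had 2 of 82 (2.44%, 0.297 to 8.53), in Csf1 and Tnf, and cell cycle genes 3 of 108 (2.78%, 0.577 to 7.90), at Bub1, Cdk2 and E2f7. Interferon and antigen presentation genes had 4 of 98 (4.08%, 1.12 to 10.1), immediate early and AP-1 genes 5 of 101 (4.95%, 1.63 to 11.2) and senescence and p53 genes 8 of 125 (6.40%, 2.80 to 12.2). The upper bounds of these 5 were below 12.7%, a value over peaks at and away from gene starts. Peaks that held a start were 1.64% of the list and 9.08% of all peaks, leaving out chromosome 18. The part of start peaks in these shares was not tested. Since the lists overlap in genes and peaks of a gene are not independent, the intervals describe these peaks alone. The 4 cells of old replicate 2 called macrophage or dendritic cell-like had 1.38 fragments in old replicate 2-alone regions per 100 in shared regions.

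Lists of mitochondrial biology and injury lay between, with intervals that held 12.7%. Mitochondrial translation and DNA maintenance had 22 of 216 (10.2%, 6.49 to 15), in 13 genes that included Ears2, which charges the glutamate tRNA, Lars2, Polg and Ppargc1a. Of these 22 regions 5 were called for cluster 13, where 11 of all 216 peaks were. The mitochondrial integrated stress response had 9 of 121 (7.44%, 3.46 to 13.7), with regions in Fgf21, Hspd1 and Psat1 among them, and fatty acid oxidation 18 of 189 (9.52%, 5.74 to 14.6), led by one 920 bp from Acot1 open in 3.44% of barcodes. Tubule injury genes had 18 of 170 (10.6%), with regions of Ccn1 (6.51% of barcodes) and Prom1 (3.6%) the most open. Of these 18, 4 were called for loop to collecting duct-like cells, where 26 of all 170 (15.3%) were. Extracellular matrix and fibrosis genes had 21 of 205 (10.2%) and fetal growth and imprinted genes 21 of 190 (11.1%), including 1 at Snhg14 and Snrpn open in 3.16% of barcodes and 25719 bp from any peak of another library.

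**Figure D4:**
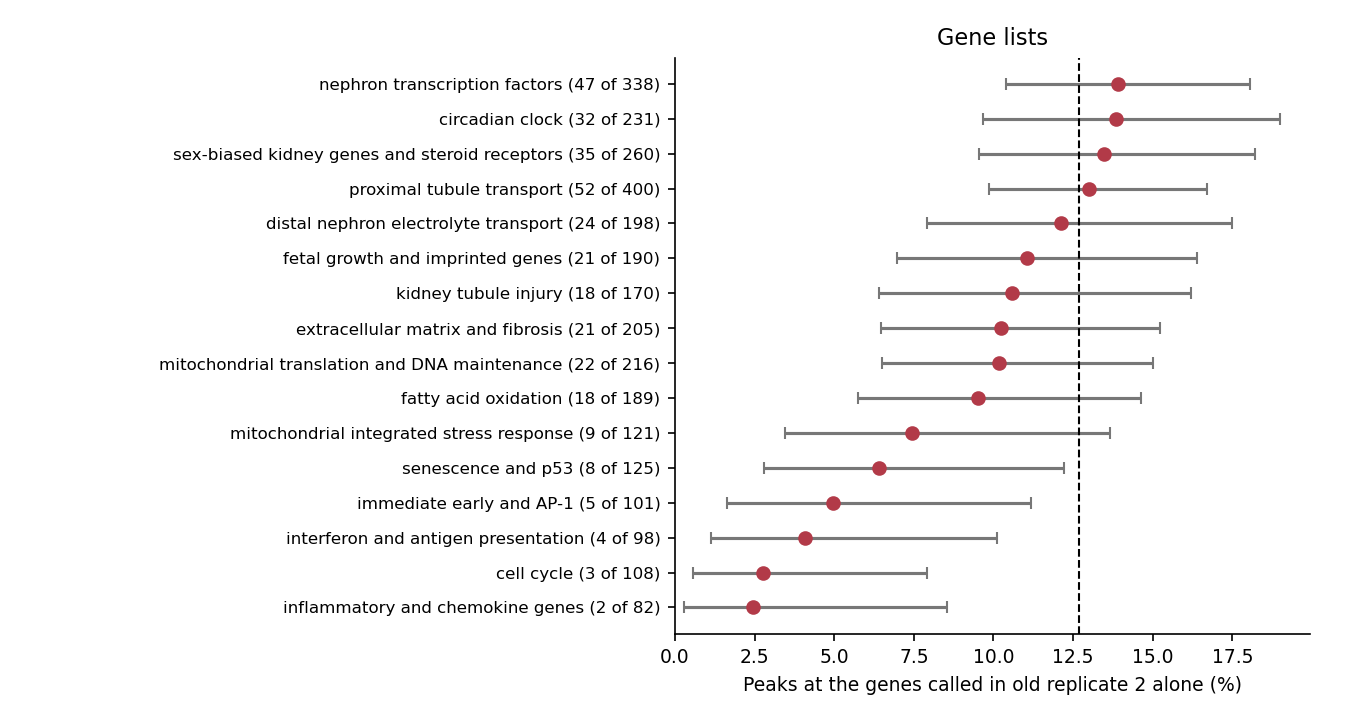
Share of old replicate 2 peaks at the genes of each list that were called in old replicate 2 alone (x axis, %; counts beside the names), with exact 95% intervals for counting error. The dashed line is the 12.7% of all peaks. Tubule transport, nephron factor and clock lists lie near the line (12.1% to 13.9%), and inflammatory and cell cycle lists lie below it (2.44% and 2.78%).

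The young library had a list of its own with similar values. There were 19872 regions called in the young library alone, 13.3% of its 149490 peaks against 12.7% for old replicate 2. Their median share of open barcodes in the young library was 1.17%, against 3.09% over all young peaks, where those of old replicate 2 had 0.907% and 2.44%. Near and far regions differed in the same direction, with a median of 1.4% open under 100 bp from another library's peak and 0.968% at 20 kb and over. The median ratio of observed to expected open barcodes was 0.935 in these regions and 0.938 over all young peaks. The difference between the libraries was not tested, as each list exists in 1 library.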

How the data were processed

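Per the submitters' processing notes, reads were processed by the authors with Cell Ranger ATAC 2.1.0 on mm10. The deposited matrices hold raw counts of cut sites per peak and called barcode, with no normalization, and peaks called on each library alone. In old replicate 2, 90.9% of the counts were even, so a fragment was taken as a count over 2, rounded up. A barcode is open at a peak with at least 1 fragment. Median counts per barcode were 16288.5, 13338.5 and 23319.5 in old replicate 1, old replicate 2 and young.

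Barcodes with at least 1000 counts were kept and 133 doublets of old replicate 2 removed by simulated doublets. The 3 libraries were clustered together on 70285 regions called in all of them and open in at least 1% of cells (latent semantic indexing, 30 components, Leiden resolution 1, 21 clusters; scikit-learn 1.9.0, igraph 0.11.9, leidenalg 0.10.2). Classes were named from 20 marker sets, 6 of which were joined as loop to collecting duct, with a scoring rule set after clusters had been seen. Boundaries among proximal tubule-like clusters moved slightly with numeric precision, so their numbers are descriptive.

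The regions and gene lists were chosen with earlier results of these data known. Named were the 12 regions open in most barcodes, the 6 most concentrated with at least 50 fragments, the 10 genes with most regions and 5 with most per 100 kb, the 3 leading regions per class and, from each gene list, its most open regions. Regions named for the loop class, cluster 13, gene starts or distance were chosen after their values were seen, as were the printed promoters. Gene positions and promoters came from RefSeq (GRCm38.p6), and identities from global alignments (Biopython 1.88). Base composition and motifs were taken from the 300 base promoter windows only, and whole regions, exons and repeats were not analysed here. Chromosome 18 was left out of start-site shares. Intervals are exact 95% (Clopper-Pearson or Poisson) and cover counting error only, since fragments carry no molecular identifiers. The analysis used Python 3.11.15, numpy 2.4.6 and scipy 1.17.1, and scripts were tested on simulated data.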

Additional observations from a re-analysis of the deposited data

How the results depend on the processing

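Of the alternatives tried, 17 moved a value by less than its counting interval or a count by less than 1.5 times. The other 20 moved one further. Direction was assessed only for the loop to collecting duct-like and endothelium-like rates against the proximal tubule-like rate, and it did not change. The number of regions was 9743 when peaks open in under 1% of barcodes were dropped from all lists, 4024 at 2% and 63586 when the young library was ignored. It was 15101 with other peaks widened by 500 bp, 19879 under a reciprocal overlap of 50% and 24708 without old replicate 1. The median share of open barcodes was 0.883% in regions at least 500 bp away and 0.953% without old replicate 1. The fragment share was 2.71% with filtered barcodes and also without the shallowest 431 barcodes, 2.60% on counts as deposited and 2.097% at least 500 bp away. The concentration ratio was 0.967 with filtered barcodes and 0.962 from 50 fragments on. The loop to collecting duct-like rate was 1.48 times the proximal tubule-like rate on open barcodes, 1.51 without doublet removal, 1.54 after thinning and 1.55 at least 500 bp away. The endothelium-like rate was 0.661 and 0.623 times under the last pair. The share near gene starts was 2.08% within 250 bp, 7.46% within 2 kb and 3.19% at least 500 bp away. The 500 bp limit for the class calls and start shares, the 3 times limit and the loss of the shallowest barcodes were added after the data were seen. At 3 times the class share, 1693 regions were called for the loop to collecting duct-like class and 1332 for cluster 13. The GC content of whole regions was not run. No paired analysis was possible because all regions come from 1 library and no result comes from a test. Depth limits the list, since a region of median openness rests on 39 barcodes and the calls need at least 10 open cells in a class.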

Other observations

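In all, 8 of the regions held a miRNA hairpin. The region of Mir375, a miRNA of secretory epithelia, was open in 230 barcodes (5.35%), that of Mir199a-1 in 164 (3.81%) and that of Mir1941 in 97 (2.25%). The others held Mir101a (73 barcodes), Mir26a-1 (52), Mir194-1 with Mir215 (38), Mir8095 (31) and Mirlet7c-1 (28). In windows of 500 kb, the most regions, 21 of 55 peaks, lay over Ptprg at chr14:11500001-12000000. The window at chr18:15000001-15500000, with Kctd1, Aqp4 and Chst9, followed with 18 of 45. Only the windows with the most regions were looked at, so how evenly the list was packed was not tested. The window over Esrrg, a nephron transcription factor, had 17 of 66. Several windows had 16, among them those over Slc4a4, the bicarbonate cotransporter of the proximal tubule (of 60), Ank3 (of 70) and Lrmda (of 54).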
